A study of Mus musculus with 6 samples.

Results

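The genes examined here encode Polycomb complexes, BAF chromatin remodelling complexes, histone deacetylases, and enzymes that write, erase or read DNA methylation. They were chosen as a list of 57 symbols, of which 55 had at least 1 probe on the array, with 83 probes among the 55681 that were not controls. No probe was matched to Chd7 or Tet1, and the only probe of Cbx7 was not well above background on any array. The tests therefore covered 79 probes of 54 genes, out of 34679 probes and 15186 gene symbols tested.

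RNA came from cells of the cerebral neocortex of C57BL/6N embryos, labelled neural progenitor cells at stage E12.5. In the phenobarbital group (3 arrays), dams had been injected intraperitoneally with 80 mg/kg phenobarbital from an 8 mg/mL solution in saline, on embryonic days 10 to 11 with injections 6 h apart. Phenobarbital is a barbiturate that enhances currents through GABA-A receptors. In the control group (3 arrays), dams had received saline on the same schedule. Per the protocol, the embryos were taken at day 12, and the dissociated cortex was plated on poly-L-ornithine and fibronectin and lysed 4 h later. The labels record no sorting of the cells and give no origin of the replicates, such as a litter or a culture. The p-values therefore cover the spread among these arrays only, and that spread may be technical.

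Polycomb repressive complex 2 (PRC2) methylates histone H3 at lysine 27, and PRC1 complexes bind that mark and ubiquitylate histone H2A, which together keep developmental genes silent. BAF complexes slide and evict nucleosomes, and in the nervous system they exchange progenitor-type subunits for neuron-type subunits as progenitors leave the cell cycle. Histone deacetylases remove acetyl groups from histone tails, while DNA methyltransferases copy or add cytosine methylation and TET enzymes oxidise it.

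Each array's 75th percentile of signal, used for scaling, was 1803 to 1862 in the phenobarbital group and 1116 to 1291 in controls. All 3 phenobarbital arrays and control replicate 1 shared a slide, while control replicates 2 and 3 were each on a slide of their own. Across all tested probes, Pearson's r was 0.992 to 0.995 between phenobarbital arrays. Between control replicates 1 and 3 it was 0.995, and control replicate 2 stood apart at 0.987 and 0.982. All 12 progenitor markers listed (Sox2, Pax6, Nes and others) were well above background on every array. So were all 13 neuronal and all 8 red blood cell markers, so detection does not set progenitors apart, and the labelled cell type could not be checked this way. In such bulk samples, fewer cells of a type and less RNA per cell cannot be told apart.

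Levels are given as log2 of a probe's signal over its array's 75th percentile, and each gene is counted by its brightest tested probe. In limma fitted over all probes, 10 of the 54 genes (18.5%) passed an adjusted p of 0.05, which was near the 16.4% of all gene symbols that passed. Of the 10, 6 rose in the phenobarbital group, namely Hdac11, Smarcd1, Smarcc2, Dnmt1, Hdac8 and Actl6b. The other 4, Mbd2, Mtf2, Phf10 and Tet2, fell. Among all symbols 7.01% rose and 9.35% fell. Of the 79 probes, 8 rose and 4 fell (15.2%), against 6.96% and 9.22% of all probes tested (16.2%). The median log2 fold change was -0.22 over the 54 genes and -0.17 over all symbols, and 38 of the 54 values were below 0, as were 68.7% of all symbols. All phenobarbital arrays lay below all control arrays for 20 of the 54 genes and above them for 9, against 34% and 13.1% of all symbols (47.1% in either direction).

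The balance between falls and rises moved with the scaling. Rises made up 43.0% of the 5612 probes called over the whole array, but 59.1% of those called after quantile normalization and 66.2% when the percentile was taken over probes above background on every array. Quantile normalization brought the median of all symbols to -0.056 and that of the 54 genes to -0.042. The same 6 genes rose under both of these scalings, while only Mtf2 and Phf10 still fell. Of all symbols, 11.9% passed after quantile normalization and 10.6% with the other percentile.

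**Figure D1:**
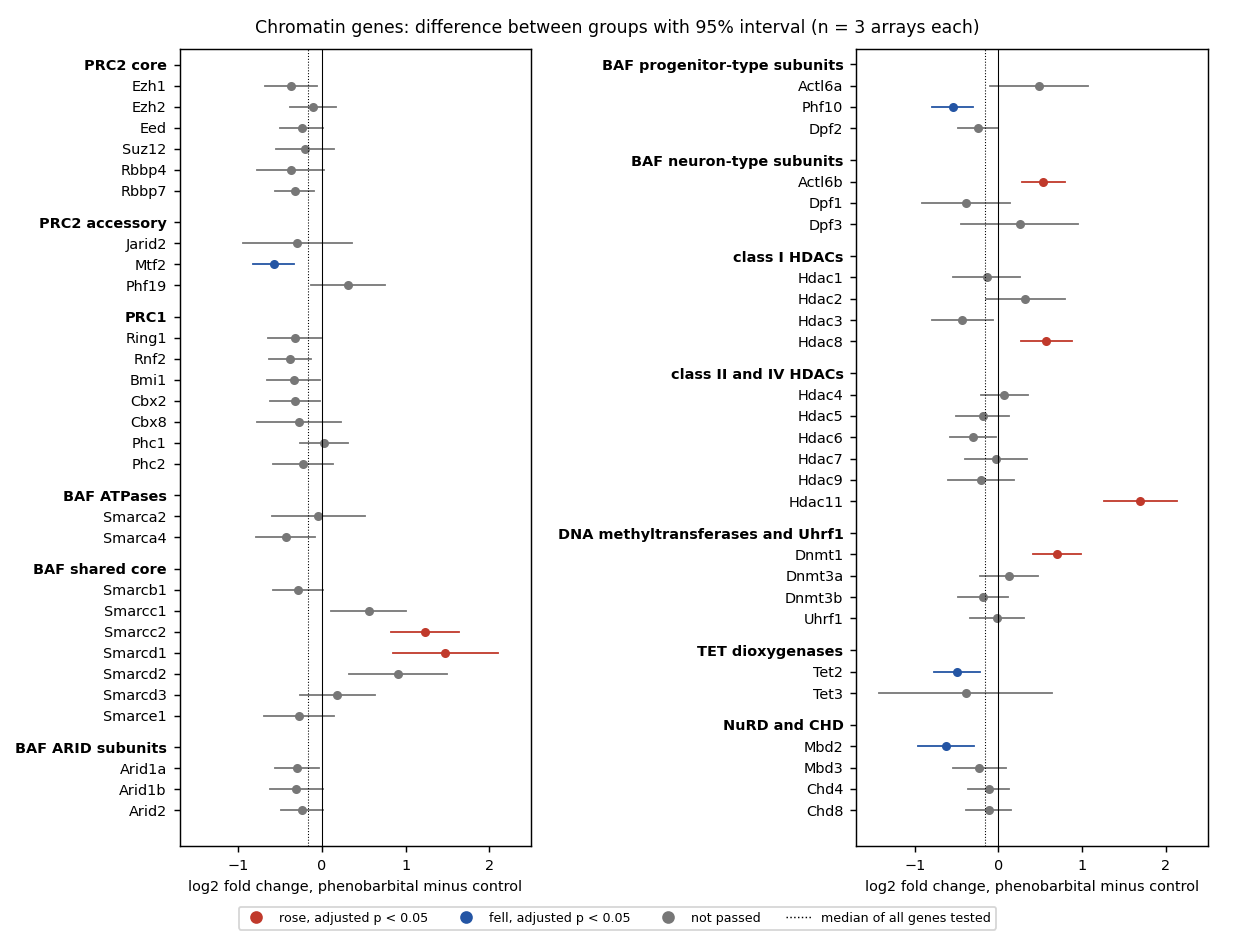
Log2 fold change (phenobarbital minus control, x axis) with its 95% interval for the brightest probe of each of the 54 genes, grouped by complex, with the median of all genes as a dotted line at -0.17. Hdac11, Smarcd1 and Smarcc2 lie farthest to the right at 1.69, 1.48 and 1.23, and most Polycomb genes lie left of 0.

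The signal level of the genes went with their direction. Of the 13 genes whose brightest probe lay below the 75th percentile, 5 rose and none fell, whereas of the 41 at or above it, Dnmt1 alone rose and 4 fell. Over all symbols, 10.5% rose and 7.78% fell below the percentile, and 4.18% rose and 10.6% fell at or above it.

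The promoters of these genes were rich in CpG. RefSeq windows covering the 250 bases before a start site (GRCm38.p6) were held for 49 of the 55 genes, 64 windows in all. Their median was 21 CpG and 65.2% G or C, against 6 CpG and 52.4% over all 32851 windows. E2F factors are known regulators of S-phase genes, and 4 spellings of an E2F word (TTTCCCGC, TTTCGCGC, TTTGCCGC and TTTGGCGC, on either strand) were searched. A word was found in 6 windows (9.38%), against 1.86% of all windows. Among windows with at least 15 CpG the shares were 13.0% of 46 and 4.34% of 8970. The 6 words lay in the windows of Dnmt1 and Smarcd1, which rose, and of Arid1a, Phf19, Suz12 and Uhrf1, whose brightest probes did not pass. The Arid1a word overlapped a GC box (GGGCGG). None of the 3 genes that fell and had a window (Mtf2, Phf10 and Tet2) held one. The 60 bases around the word are printed for both genes that rose and for a Polycomb gene and a maintenance methylation partner that did not pass, with the word in capitals, 5′ to 3′ on the gene's strand. Dnmt1 is at chr9:20952809-20952868 (minus strand), Smarcd1 at chr15:99702130-99702189, Suz12 at chr11:79992861-79992920 and Uhrf1 at chr17:56304102-56304161 (plus strand).
Dnmt1: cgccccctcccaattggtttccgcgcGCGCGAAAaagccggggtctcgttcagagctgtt
Smarcd1: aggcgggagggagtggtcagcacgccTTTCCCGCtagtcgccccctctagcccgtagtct
Suz12: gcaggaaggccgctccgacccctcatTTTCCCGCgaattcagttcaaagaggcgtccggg
Uhrf1: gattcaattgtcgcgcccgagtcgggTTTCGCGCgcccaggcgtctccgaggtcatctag
In the Dnmt1 window the word is read on the opposite strand. Dnmt1 and Smarcd1 rose and Suz12 and Uhrf1 did not pass, so genes with the word were on both sides of the threshold.

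None of the 6 PRC2 core genes passed in limma, and at an unadjusted p under 0.05 there were 2, both with values below 0. Over the array 36.6% of all symbols (5551 of 15186) had an unadjusted p under 0.05, so the unadjusted counts given here for each list stand beside that share. All 6 fold changes were negative, from -0.37 to -0.11, as were 68.7% of all symbols. In 4 of the 6 the phenobarbital arrays lay wholly below the controls, beside 34% of all symbols. After quantile normalization the fold change of Ezh2, the H3K27 methyltransferase, was 0.062, on the other side of 0. Rbbp4 encodes a histone-binding protein shared by PRC2, NuRD and other complexes. Its levels were 5.31, 5.28 and 5.24 on phenobarbital arrays and 5.54, 5.99 and 5.41 on control arrays, so the groups did not overlap, and control replicate 2 was the highest array. The log2 fold change was -0.37 ± 0.17 (SE, n = 3 each, limma adjusted p = 0.165). Among the other core genes the smallest adjusted p was that of Rbbp7, a close relative of Rbbp4, at 0.065 (log2 fold change -0.33 ± 0.10). Suz12, the scaffold subunit whose promoter word is shown above, gave -0.20 ± 0.14 (adjusted p = 0.354), and its groups overlapped.

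Among 3 PRC2 accessory genes, Mtf2 fell, which was the only call among 16 Polycomb genes tested (6.2%). Of all symbols, 16.4% were called and 9.35% fell. Mtf2 (PCL2) is a Polycomb-like protein that helps to bring PRC2 to CpG islands. Phenobarbital arrays read 2.63, 2.60 and 2.45 and control arrays 3.15, 3.14 and 3.12. The control values were tightly grouped and every phenobarbital value lay below them, with a log2 fold change of -0.57 ± 0.10 (0.671-fold, limma adjusted p = 0.0197). Within the shared slide the difference was -0.58, with an adjusted p of 0.149 when slide was a block. Phf19, another Polycomb-like gene, gave 0.31 ± 0.18 and Jarid2, a DNA-binding cofactor, -0.29 ± 0.27, neither past the threshold.

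None of the 7 tested PRC1 genes passed in limma, with 4 at an unadjusted p under 0.05 (36.6% of all symbols), all with values below 0. Their fold changes ran from -0.38 to 0.021, and 4 genes had phenobarbital arrays wholly below the controls (34% of all symbols). Phc2, a polyhomeotic subunit, read 6.10, 6.41 and 5.95 on phenobarbital arrays and 6.39, 6.27 and 6.49 on control arrays. These ranges overlapped, and its -0.23 ± 0.15 (adjusted p = 0.317) became 0.063 after quantile normalization. Rnf2 (RING1B), the main H2A ubiquitin ligase, came closest to the threshold at -0.38 ± 0.10 (adjusted p = 0.0521). Over all 16 Polycomb genes, 14 fold changes were negative, beside 68.7% of all symbols. The median of the 16 was -0.31, beside the -0.17 of all symbols. For all symbols at or above the 75th percentile, where most of the 16 lay, the median was -0.20. After quantile normalization 12 of 16 were negative with a median of -0.16, beside -0.056. Phenobarbital arrays lay wholly below controls in 9 of the 16, beside 34% of all symbols.

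**Figure D2:**
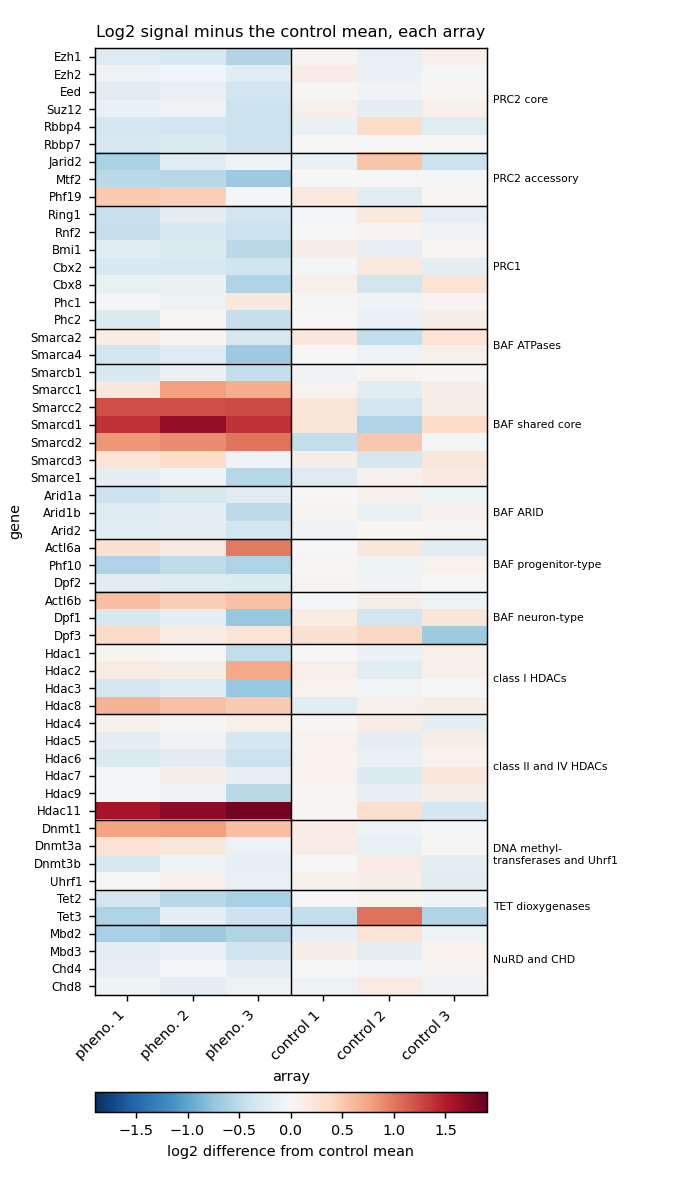
Log2 level of the brightest probe of each gene (y axis, grouped by complex) on each of the 6 arrays (x axis), minus the mean of the 3 control arrays. The rises of Hdac11, Smarcd1, Smarcc2 and Dnmt1 show on all 3 phenobarbital arrays, and control replicate 2 differs from the other controls for Tet3, Smarcd1 and Smarcd2.

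The BAF shared core held both of the family's strongest rises. Smarcd1 (BAF60A) links BAF complexes to transcription factors. It read -0.21, 0.092 and -0.22 on phenobarbital arrays and -1.35, -2.16 and -1.24 on control arrays. All phenobarbital values were above all controls, and control replicate 2 was the lowest array. The log2 fold change was 1.48 ± 0.26 (2.78-fold, limma adjusted p = 0.0192), and 1.24 with slide as a block (adjusted p = 0.0473).

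Smarcc2 (BAF170) is a scaffold subunit that alternates with Smarcc1 (BAF155) in cortical progenitors. It read -0.0065, -0.015 and 0.0050 on phenobarbital arrays and -1.0, -1.59 and -1.12 on control arrays. The phenobarbital arrays lay within a narrow range above all controls, and the log2 fold change was 1.23 ± 0.17 (2.35-fold, adjusted p = 0.0094, and 0.995 with adjusted p = 0.045 for slide as a block). Smarcc1 itself gave 0.56 ± 0.19 without passing (adjusted p = 0.0878). Smarcd2 (BAF60B) gave 0.91 ± 0.24 (adjusted p = 0.0508), with a control spread from -1.37 to -0.41 whose highest array was replicate 2. With slide as a block its value was 1.37 and the adjusted p 0.0315, and without control replicate 2 it was 1.17 with an adjusted p of 0.0106. Smarcb1, Smarce1 and Smarcd3 gave -0.28, -0.27 and 0.19, none past the threshold.

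Neither BAF ATPase passed in limma, and 1 of the 2 had an unadjusted p under 0.05 (36.6% of all symbols), with a value below 0. Smarca4 (BRG1), which powers the complex in progenitors, read 6.59, 6.71 and 6.26 on phenobarbital arrays and 6.96, 6.85 and 7.04 on control arrays on its brightest probe. The groups did not overlap, at -0.43 ± 0.15 (adjusted p = 0.0915). A second Smarca4 probe gave 0.74 ± 0.32 (adjusted p = 0.153), on the other side of 0. The other ATPase gene, Smarca2 (BRM), gave -0.041 ± 0.23.

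The ARID subunits, which define types of BAF complex, also showed probes that disagreed. None of the 3 genes passed on its brightest probe in limma, with 1 at an unadjusted p under 0.05, below 0, beside 36.6% of all symbols. On that probe Arid1a read 2.55, 2.65 and 2.76 on phenobarbital arrays and 2.95, 3.04 and 2.87 on control arrays, a difference of -0.30 ± 0.11 (adjusted p = 0.108). A dimmer Arid1a probe read 1.53, 1.56 and 2.11 on phenobarbital arrays and 0.39, 0.26 and 0.68 on control arrays. There all phenobarbital values lay above all controls, and this probe rose by 1.29 ± 0.20 on the log2 scale (adjusted p = 0.0137, and 0.0787 with slide as a block). Arid1b and Arid2 gave -0.31 ± 0.13 and -0.24 ± 0.10 on their brightest probes.

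Of the progenitor-type BAF subunits, Phf10 (BAF45A) fell. It read 3.98, 4.09 and 3.98 on phenobarbital arrays and 4.58, 4.48 and 4.63 on control arrays. The groups were well apart, and the log2 fold change was -0.55 ± 0.10 (0.684-fold, limma adjusted p = 0.0222, and -0.56 with adjusted p = 0.145 for slide as a block). Its partner subunit Actl6a (BAF53A) gave 0.48 ± 0.24 without passing, with phenobarbital replicate 3 at 3.21, above the 2.51 and 2.40 of the other phenobarbital arrays. Dpf2 gave -0.24 ± 0.10.

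Of the neuron-type subunits, Actl6b (BAF53B) rose. Its levels were -2.37, -2.47 and -2.39 on phenobarbital arrays and -2.97, -2.83 and -3.03 on control arrays, with no overlap. The log2 fold change was 0.53 ± 0.11 (1.45-fold, adjusted p = 0.0261, and 0.56 with adjusted p = 0.144 for slide as a block). After normexp background correction it was 0.34, so the size depended on how background was removed. Dpf1 (BAF45B) read 3.27, 3.39 and 2.85 on phenobarbital arrays and 3.70, 3.19 and 3.79 on control arrays on its brightest probe, which overlapped (-0.39 ± 0.22, adjusted p = 0.245). Its dimmer probe read 1.64, 1.88 and 1.46 on phenobarbital arrays and 0.97, 1.0 and 1.04 on control arrays, and rose by 0.66 ± 0.13 (adjusted p = 0.0274, and 0.168 with slide as a block). Dpf3 gave 0.25 ± 0.29.

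Cell type markers moved between the groups as well. The counts below stand beside the 7.01% of all symbols that rose and the 9.35% that fell. They were made under the reported scaling only, and falls over the array moved with the scaling. Of 13 neuronal markers, 5 fell and none rose, and their summed signal was 212 to 253 times the 75th percentile on phenobarbital arrays against 323 to 362 on control arrays. Of 12 progenitor markers, 1 rose and 2 fell, with sums of 341 to 395 on phenobarbital arrays and 435 to 489 on control arrays. The falls were those of Vim and Notch1. The brightest Notch1 probe gave -1.19 ± 0.16, while a dimmer Notch1 probe rose by 1.56 ± 0.18 (limma adjusted p = 0.00618). That dimmer probe was well above background on 3 phenobarbital and 2 control arrays. It thus entered the test through the phenobarbital group alone, where it is high, and its rise has no weight of its own. Intermediate progenitor markers gave sums of 95.6 to 98.6 on phenobarbital arrays and 129 to 136 on control arrays, and 1 of 8 fell. The summed levels of these neural lists were thus lower on every phenobarbital array than on any control array. Such a sum weighs the brightest markers most. The brightest progenitor marker, Vim, read 7.45 to 7.55 on phenobarbital arrays and 7.83 to 8.00 on control arrays. Of the 12 progenitor fold changes, 7 were negative and 5 positive, so the sum does not show a fall across that list. For red blood cells 5 of 8 markers fell (602 to 656 on phenobarbital arrays, 936 to 1370 on control arrays). Markers of the choroid plexus, the epithelium that makes cerebrospinal fluid, went the other way, with 5 of 7 rising (12.2 to 23.4 on phenobarbital arrays, 2.41 to 4.55 on control arrays). Within that list no control array read Kcne2 well above background. Kcne2 thus entered the test through the phenobarbital group alone, and its rise has no weight of its own. Kl was not tested. Of the 9 markers each of meninges and mural cells, endothelium, and microglia, 6, 3 and 4 fell, and 1 microglial marker rose. Fold changes were negative for all 9 meningeal and mural markers. They were negative for 6 and positive for 3 in endothelium, and negative for 5 and positive for 4 in microglia. The microglial sums overlapped, at 8.84 to 11.5 on phenobarbital arrays and 8.69 to 10.9 on control arrays. The part of these shifts in the chromatin gene results was not tested.

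**Figure D3:**
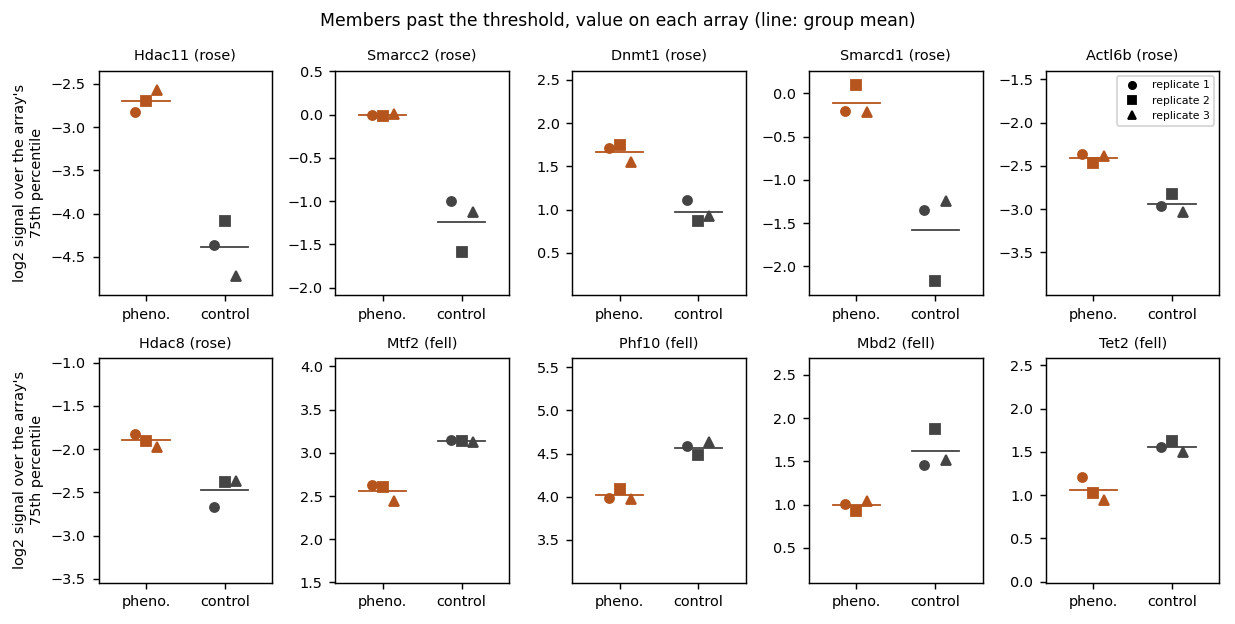
Log2 level over the array's 75th percentile (y axis) on each array for the 10 genes past the threshold, phenobarbital left of control, with replicates as symbols and a line at the group mean; every panel spans the same height. In each of the 10 the groups do not overlap, and the gap is widest for Hdac11, at -2.82 to -2.58 on phenobarbital arrays and -4.72 to -4.08 on control arrays.

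Among the histone deacetylases, Hdac11 showed the largest rise of the 54 genes and was the 1 call that held in all 19 other settings tried. Hdac11, the only class IV enzyme, removes long fatty acyl groups from lysine as well as being counted among the deacetylases. It read -2.82, -2.69 and -2.58 on phenobarbital arrays and -4.36, -4.08 and -4.72 on control arrays. Every phenobarbital array was above every control, and all 6 were well above background. The log2 fold change was 1.69 ± 0.18 (3.23-fold, 95% interval 1.26 to 2.13 on the log2 scale, limma adjusted p = 0.00478). With slide as a block it was 1.67 (adjusted p = 0.0293), and after normexp correction 0.93. The Hdac11 promoter window held 17 CpG, no E2F word, a GC box and a CCAAT box. Its last 150 bases before the start (chr6:91156665-91156814, plus strand, GRCm38.p6, RefSeq) are shown for this strongest rise, with the CCAAT box, read on the opposite strand, in capitals.
Hdac11: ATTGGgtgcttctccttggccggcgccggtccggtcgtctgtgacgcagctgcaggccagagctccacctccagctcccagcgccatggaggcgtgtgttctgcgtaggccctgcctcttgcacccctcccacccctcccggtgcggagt
CCAAT boxes, on either strand, were in 42.2% of the 64 windows and 33.8% of all windows, and GC boxes in 73.4% and 32.7%.

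Hdac8, a class I enzyme whose best-known substrate is the cohesin subunit SMC3, also rose. It read -1.82, -1.91 and -1.97 on phenobarbital arrays and -2.67, -2.38 and -2.36 on control arrays. No values overlapped, with a log2 fold change of 0.57 ± 0.13 (1.49-fold, adjusted p = 0.0327, and 0.77 with adjusted p = 0.0821 for slide as a block). Its dimmer probe gave 0.32 ± 0.11 in the same direction without passing (adjusted p = 0.0976). The class I enzymes of the large corepressor complexes, Hdac1, Hdac2 and Hdac3, gave -0.14 ± 0.17, 0.32 ± 0.20 and -0.43 ± 0.15, none past the threshold. For Hdac1 the value was 0.055 after quantile normalization. The 5 class II genes tested ran from -0.30 (Hdac6, the tubulin deacetylase) to 0.068 (Hdac4), with adjusted p from 0.117 to 0.911.

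Of the DNA methylation genes, Dnmt1 rose. Dnmt1 copies methylation onto newly made DNA strands, and Uhrf1 guides it to them. Dnmt1 read 1.72, 1.74 and 1.55 on phenobarbital arrays and 1.11, 0.87 and 0.93 on control arrays. The lowest phenobarbital array was above the highest control, and the log2 fold change was 0.70 ± 0.12 (1.62-fold, limma adjusted p = 0.0173). It was 0.56 with slide as a block, where it did not pass (adjusted p = 0.163). Uhrf1 gave -0.018 ± 0.13 (95% interval -0.34 to 0.30), and 0.17 after quantile normalization, so a difference was not detectable. The de novo enzymes Dnmt3a and Dnmt3b gave 0.13 ± 0.14 and -0.18 ± 0.13, and their groups overlapped.

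Tet2, which oxidises 5-methylcytosine, fell. It read 1.21, 1.03 and 0.95 on phenobarbital arrays and 1.55, 1.63 and 1.50 on control arrays. The groups were apart at -0.50 ± 0.11 (0.708-fold, adjusted p = 0.0356, and -0.49 with adjusted p = 0.206 for slide as a block). A dimmer Tet2 probe gave -0.39 ± 0.10 (adjusted p = 0.0507). Tet3 gave -0.39 ± 0.43, with control replicate 2 at 1.0 and the other controls at -0.51 and -0.60. Without that array the Tet3 value was 0.13.

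NuRD couples nucleosome remodelling to deacetylation, and of the NuRD and CHD genes Mbd2 fell. Mbd2 is the NuRD subunit that binds methylated CpG. Its brightest probe read 1.0, 0.92 and 1.05 on phenobarbital arrays and 1.46, 1.87 and 1.52 on control arrays, with no overlap (-0.62 ± 0.14, 0.649-fold, adjusted p = 0.034, and -0.47 with adjusted p = 0.188 for slide as a block). Its second probe did not show the difference, reading 0.30, 0.34 and 0.46 on phenobarbital arrays and 0.30, 0.38 and 0.28 on control arrays (0.044 ± 0.10). Mbd3, its paralogue, gave -0.23 ± 0.13 on the brightest probe and 1.06 ± 0.56 on a second, where control replicate 2 read -0.39 and the other controls 1.65 and 1.78. The remodellers Chd4 and Chd8 both gave -0.12, with SEs of 0.10 and 0.11. Quantile normalization placed Mbd3, Chd4 and Chd8 at 0.042, 0.10 and 0.061.

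Such disagreement between probes was common. Of the 20 genes with several tested probes (45 probes), 11 (55.0%) had fold changes of both signs, against 44.7% of 3981 such genes over the array. In 5 of the 20 at least 1 probe passed, and in none did every probe pass. Over the array those counts were 1321 and 169 of 3981. Where each probe lies in its gene was not looked up here, and the calls for Arid1a, Dpf1, Hdac8, Mbd2 and Tet2 are calls for 1 probe. The other 7 genes that passed had a single tested probe each.

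**Figure D4:**
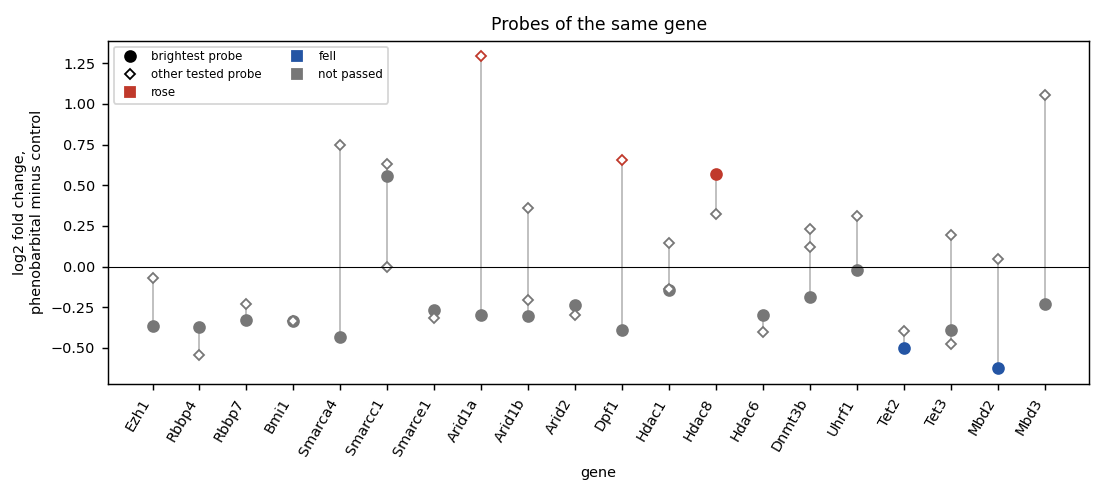
Log2 fold change (phenobarbital minus control, y axis) of every tested probe for the 20 genes with several (x axis), with the brightest probe as a filled circle and the others as open diamonds, coloured by call. The widest gaps are those of Arid1a (-0.30 and 1.29), Mbd3 (-0.23 and 1.06) and Smarca4 (-0.43 and 0.74).

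Of 77 other tested genes of these complexes, 5 rose and 3 fell on the brightest probe (10.4%, against 16.4% of all symbols). The strongest was Ncor1, the scaffold of an Hdac3 corepressor complex, with 1.61, 1.56 and 2.13 on phenobarbital arrays and -0.54, -0.46 and -0.57 on control arrays. It rose by 2.29 ± 0.17 (limma adjusted p = 0.00242) and by 2.31 with slide as a block (adjusted p = 0.03), while another Ncor1 probe gave 0.27. Suds3, a SIN3 deacetylase complex subunit, rose by 1.39 ± 0.20 (adjusted p = 0.0115), with 1.87, 1.41 and 1.21 on phenobarbital arrays and 0.059, -0.078 and 0.35 on control arrays.

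In the PRC1 group, 3 of 18 such genes rose and 1 fell (22.2%, against 16.4% of all symbols). Pcgf3 and Pcgf6, RING finger subunits of variant PRC1, rose by 1.14 ± 0.14 (adjusted p = 0.00699) and 0.42 ± 0.10 (adjusted p = 0.0432), and Scmh1 rose by 0.71 ± 0.12 (adjusted p = 0.019). Bap1, a deubiquitylase that removes the PRC1 mark, fell by 0.40 ± 0.10 (adjusted p = 0.049), and by 0.22 after quantile normalization, where it did not pass. Actb, the actin that is also a BAF subunit, gave -0.46 ± 0.10 (adjusted p = 0.0288), but -0.042 after quantile normalization. Among the DNA methylation genes, Gadd45a, which takes part in DNA repair and demethylation, fell by 0.93 ± 0.12 (adjusted p = 0.00768). It read 1.56, 1.50 and 1.64 on phenobarbital arrays and 2.52, 2.64 and 2.34 on control arrays, and with slide as a block its value was -0.95 (adjusted p = 0.0531). With that block Suds3, Pcgf3, Pcgf6, Scmh1, Bap1 and Actb did not pass either. None of the 6 tested PRC2 genes or the 11 NuRD and CHD genes of these lists passed on the brightest probe in limma. At an unadjusted p under 0.05 there were 4 of the 6 (3 below 0 and 1 above) and 1 of the 11 (above 0), beside 36.6% of all symbols. Dimmer probes of the remodeller Chd2 and of the NuRD subunit Gatad2a rose, by 1.58 ± 0.16 (adjusted p = 0.0042) and 1.24 ± 0.14 (adjusted p = 0.0054). So did dimmer probes of Cbx6, Phc3 and Sirt6, by 1.65, 0.70 and 0.87. The Phc3 probe was well above background on 3 phenobarbital and 2 control arrays. It thus entered the test through the phenobarbital group alone, and its rise has no weight of its own. For all 5 of these genes the brightest probe was on the other side of 0, from -0.29 (Sirt6) to -0.12 (Phc3), without passing.

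Genes that these complexes are known to keep silent were mostly dark on both groups of arrays. Of 29 Polycomb-silenced posterior and lineage genes, 9 were tested, and only Hoxb9 passed. Hoxb9 entered the test through the phenobarbital group alone, where it is high, so its call has no weight of its own. It read -4.10, -5.70 and -5.22 on phenobarbital arrays while no control array read it well above background, which makes it at least 3.02-fold higher (limma adjusted p = 0.0328). After normexp correction its difference was 0.19 and did not pass. Of 18 germline genes silenced by DNA methylation, 2 were tested and neither passed in limma, with values of -0.73 and -0.38 and unadjusted p under 0.05 for both, as for 36.6% of all symbols.

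With slide as a block, which sets the 3 phenobarbital arrays against control replicate 1 and takes that lone array to vary like the rest, 4 of the 54 genes passed. These were Hdac11, Smarcc2, Smarcd1 and Smarcd2, all higher in the phenobarbital group. No gene fell in that limma fit, with 4 below 0 at an unadjusted p under 0.05. Over all symbols 3.04% passed there. The other 7 genes called without the block kept their direction within the shared slide.

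Leaving out 1 array at a time kept all 10 directions but not all calls. Hdac11 and Smarcc2 passed in all 6 such fits, with adjusted p of 0.00366 to 0.0279 and 0.00469 to 0.044. Dnmt1 did not pass without phenobarbital replicate 1 (0.0708), phenobarbital replicate 2 (0.0704) or control replicate 3 (0.0523). Smarcd1 did not pass without phenobarbital replicate 1, 2 or 3 (0.0611, 0.0735 and 0.0613) or control replicate 1 (0.0522). Mtf2 passed without phenobarbital replicate 3 (0.0494) or control replicate 2 (0.0275) only. Actl6b, Hdac8, Phf10 and Mbd2 passed without control replicate 2 only, at 0.0211 to 0.0353. Tet2 passed in none, with adjusted p of 0.0522 to 0.11.

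**Figure D5:**
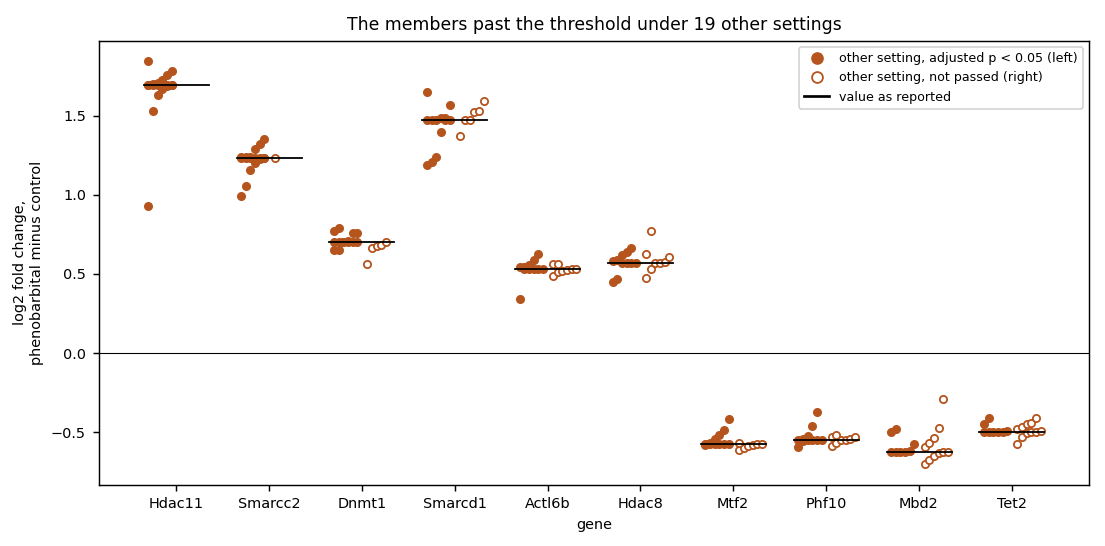
Log2 fold change (phenobarbital minus control, y axis) of the 10 genes past the threshold (x axis) in 19 other settings, filled where the adjusted p was under 0.05 and open where it was not, with the value as reported as a line. No value crosses 0; all Hdac11 points are filled, from 0.93 to 1.84, and 1 of the 19 Smarcc2 points is open.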

How the data were processed

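RNA from 3 phenobarbital and 3 control samples had been labelled with Cy3 (0.2 µg per sample) and hybridised to 1-colour Agilent arrays. Per the file headers, the authors quantified the scans with Agilent Feature Extraction, version 10.7.3.1 (the submitters' processing notes give 10.7), and the deposited values are background-subtracted intensity per spot on a linear scale. The array annotation uses mm9, per the file headers. The authors' deposited value table holds log2 values, and its differences between arrays matched those of the log2 processed signals. Its centring per probe stays unknown. Its column medians were -0.02, -0.09 and -0.08 for phenobarbital replicates 1 to 3 and 0.08, 0.10 and 0.09 for control replicates 1 to 3.

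Each array's processed signals were divided by their 75th percentile over the 59305 spots outside the controls and put on a log2 scale. Outlier spots (98 to 198 per array) were left out, and no spot was saturated. Tested probes were those that the software called well above background on all arrays of 1 group or both and that kept at least 2 values per group. Groups were compared over all tested probes in limma (lmFit, eBayes; version 3.58.1, R 4.3.3), without covariates, two-sided, with Benjamini-Hochberg adjustment. SE is the standard error of the fit. Accessions were matched to symbols through RefSeq's gene table (GRCm38.p6), which named 26582 probes. The fit was tested on simulated data. The number of arrays limits the precision, and an exact permutation test of 3 arrays against 3 cannot go below 0.1.

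Members and gene lists were chosen with earlier results of these data known. Values per array are given for up to 4 genes past the threshold in each complex, for its brightest gene where none passed, and for genes whose probes differ in call. Up to 4 past the threshold are named in the other lists. Second probes and values near the threshold were chosen after the values were seen. Alternatives changed the background correction, scaling, filter, outlier spots, probe choice, variance prior and source of values, added slide or replicate number as a block, or left out 1 array. The normexp correction used median spot signals. Deviations of same-numbered arrays correlated at 0.06, -0.16 and -0.33 across probes, so replicate numbers were not taken to pair the samples.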

Additional observations from a re-analysis of the deposited data

How the results depend on the processing

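Of the alternatives tried, none turned the direction of any of the 10 called genes. The number of probes called over the array, 5612 as reported (2413 that rose and 3199 that fell), was 9209 with normexp correction (6856 fell), 1929 with no filter on dim probes (1313 rose, 616 fell), 1094 with slide as a block (914 rose, 180 fell) and 577 with the replicate number as a block (523 rose, 54 fell). Falls numbered 1712 after quantile normalization, 1271 with the percentile over probes above background on every array, and 2090 with slide as a random block. Rises numbered 1578 with only the brightest probes tested. Leaving out 1 array gave 1357 to 5973 calls (1027 to 2794 that rose, 305 to 3179 that fell). Of the 54 chromatin genes, 3 rose with no filter and 1 (Hdac11) with the replicate block, which shares only a number between groups. The number that fell was 2 under quantile normalization and under the detected-probe percentile, 7 with a variance trend in eBayes, and 0 with no filter, with slide as a block and with the replicate block (limma, with 11, 4 and 6 below 0 at an unadjusted p under 0.05). Leaving out 1 array gave 2 to 7 that rose and 0 to 3 that fell. These counts stand beside the share of all symbols called in either direction, 16.4% as reported. That share was 11.9% after quantile normalization, 10.6% with the detected-probe percentile and 22.8% with the variance trend. It was 4.99% with no filter, 1.49% with the replicate block, and 3.79% to 17.2% with 1 array left out.

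Signs changed only for genes that did not pass. Quantile normalization gave Mbd3 0.042, Hdac1 0.055, Hdac5 0.058, Chd8 0.061, Ezh2 0.062, Phc2 0.063, Chd4 0.10, Hdac7 0.15 and Uhrf1 0.17. The mean over a gene's probes gave Dnmt3b 0.056, Dpf1 0.13, Uhrf1 0.15, Smarca4 0.16, Mbd3 0.41 and Arid1a 0.50. The detected-probe percentile gave Smarca2 0.050, Hdac7 0.061 and Uhrf1 0.073, and normexp gave Dpf3 -0.10, Hdac7 0.0089, Smarca2 0.011 and Uhrf1 0.13. Slide as a block gave Phc1 -0.0026, Dpf3 -0.034 and Tet3 0.080. Leaving out 1 array gave Hdac1 -0.24 to 0.022, Uhrf1 -0.12 to 0.044, Hdac7 -0.16 to 0.071, Phc1 -0.066 to 0.079, Hdac4 -0.013 to 0.14, Smarca2 -0.27 to 0.091, Tet3 -0.67 to 0.13 and Dpf3 -0.089 to 0.45. The cause of these changes was not tested. Normexp gave smaller differences for Hdac11 (0.93, as reported 1.69) and Hoxb9 (0.19, as reported 1.76).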
